A study of Homo sapiens with 18 samples.

Results

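The genes described here make and recycle glutathione or belong to the NRF2 antioxidant programme: GCLC, GCLM, GSR, NQO1, HMOX1, TXNRD1, SRXN1, NFE2L2 and KEAP1. They were chosen by name for their pathway, with results of these libraries already in view, and no cutoff on a measured value was applied to any of them. Counts and medians over the 9 genes are therefore descriptions and not independent evidence. All 9 were among the 58051 genes listed in the files, and all 9 were among the 15037 that passed the filter on low counts and were tested.

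THP-1 is a human cell line from a monocytic leukaemia, and RNA was sequenced in 18 libraries of it, 3 in each of 6 groups, from experiments numbered 1, 2 and 3. The cells carried a retroviral MSCV vector with GFP that held a MYC-tagged NOTCH1 intracellular domain (NIC1), a dominant-negative Mastermind-like protein (DNMAML) or no further insert (IRES). NIC1 is the active form of the receptor, and DNMAML blocks the nuclear complex through which Notch receptors activate genes. GFP-positive cells were sorted, and all 6 groups were treated with the phorbol ester PMA at 5 ng/ml for 48 h, which gives THP-1 cells macrophage-like features. NIC1, DNMAML and IRES cells were then stimulated with IL-4 at 20 ng/ml for 3 h or left unstimulated. The inserts were driven from a vector in a sorted population of a tumour line, and no label states whether each experiment was transduced anew.

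Glutathione is the most abundant low-molecular-weight thiol of animal cells and the electron donor for peroxidases and glutaredoxins. Its synthesis begins with glutamate-cysteine ligase, which has a catalytic subunit (GCLC) and a modifier subunit (GCLM), and glutathione reductase (GSR) returns the oxidised form to the reduced one. The transcription factor NRF2, encoded by NFE2L2, is held for degradation by KEAP1 and, when released under oxidative or electrophilic stress, binds antioxidant response elements near GCLC, GCLM, NQO1, HMOX1, TXNRD1 and SRXN1. IL-4 acts on macrophages mainly through STAT6, and Notch acts through the DNA-binding protein RBPJ.

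The promoters of the ligase subunits are shown because most of the values below concern these genes. Each window runs from 250 bases before to 50 bases after the start site, is taken from RefSeq (GRCh38.p14) and is written 5′ to 3′ on the strand of the gene. The GCLC window lies at chr6:53545052-53545351 and the GCLM window at chr1:93909381-93909680, both on the minus strand, and capitals mark a match to the antioxidant response element.
GCLC: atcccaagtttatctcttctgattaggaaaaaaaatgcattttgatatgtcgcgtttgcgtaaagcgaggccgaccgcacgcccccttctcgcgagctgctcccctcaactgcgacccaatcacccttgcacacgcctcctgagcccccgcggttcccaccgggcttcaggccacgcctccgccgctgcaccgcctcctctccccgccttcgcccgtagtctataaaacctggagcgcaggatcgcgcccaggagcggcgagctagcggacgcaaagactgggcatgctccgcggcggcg
GCLM: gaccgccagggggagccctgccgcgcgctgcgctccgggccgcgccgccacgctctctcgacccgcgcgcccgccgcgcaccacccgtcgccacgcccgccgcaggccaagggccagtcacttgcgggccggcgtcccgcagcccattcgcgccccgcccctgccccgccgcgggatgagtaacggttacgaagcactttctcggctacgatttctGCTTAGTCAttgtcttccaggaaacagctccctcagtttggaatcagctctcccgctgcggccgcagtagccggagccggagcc

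The element was searched as TGACNNNGC on both strands, a STAT6 motif as TTC and GAA with 4 bases of any kind between them, and an RBPJ motif as GTGGGAA. Over 35116 RefSeq promoter windows of the same length, 13.3% held the antioxidant response element, 6.44% the STAT6 motif and 6.25% the RBPJ motif. The GCLM window held 1 antioxidant response element (TGACTAAGC on the opposite strand, positions -34 to -26 from the start site). The GCLC window held none of these letters, and held 1 RBPJ motif, on the opposite strand at -97 to -91. Windows were searched for 7 of the 9 genes, 10 windows in all. HMOX1 had no entry among the promoters, and windows on chromosome 8, where GSR lies, were left out of the search. TXNRD1 had antioxidant response elements in both of its windows, KEAP1 had 2 in its second window, and NFE2L2 and TXNRD1 each had 1 RBPJ motif. No STAT6 motif was found in any of the 10 windows, and no matches overlapped each other. A match is a run of letters and says nothing of binding. Sequence outside these windows was not searched, so a gene without a match here may have one further away.

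Between 12410668 and 15099788 counts per library fell in genes. The libraries DNMAML with IL-4 replicate 3 (25322 genes with a count) and IRES unstimulated replicate 3 (23179) stood apart from the other libraries, which had 21067 to 21557, and calls in groups that hold them are also given without both. The NOTCH1 gene, whose counts can include vector reads, had 245 to 453 CPM (counts scaled to the total of each library) in NIC1 libraries and 133 to 274 CPM in the others. MAML1 had 102 to 139 CPM in DNMAML libraries and 76.0 to 99 CPM in the others. Of 12 monocyte and macrophage markers, 9 reached 1 CPM in all 6 groups, among them SPI1, CSF1R, ITGAM and ITGAX. CD68 had only 0.401 to 1.6 CPM over the libraries, MRC1 stayed at or below 0.149 CPM and MSR1 at or below 0.367 CPM. Markers of erythroid cells and megakaryocytes summed to at most 2.75 CPM, with HBB, HBG1 and PF4 at 0, and 11 fibroblast and epithelial markers, 5 of which reached 1 CPM, summed to 99 to 193 CPM.

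Levels are compared between genes as CPM per kilobase of exon, averaged over the 18 libraries. KEAP1 was highest at 39.8, followed by GCLM at 29.2 (range over libraries 13.6 to 48.2), TXNRD1 at 24 and GCLC at 20.4 (9.55 to 35.4). NFE2L2 had 15.8 and GSR 6.31, and their ranges of 13.5 to 19.2 and 5.40 to 7.16 did not overlap. HMOX1 averaged 4.87 and NQO1 4.03, and SRXN1 was lowest at 0.317, below every library of NQO1. All other neighbours in this order overlapped in their ranges. The order depends on the exon length used, which joins all annotated exons of a gene. In mean CPM without that division, GCLC had 176, TXNRD1 161, GCLM 158 and KEAP1 150. On the CPM scale, the highest library exceeded the lowest by 3.71-fold for GCLC, 3.54-fold for GCLM and 3.07-fold for HMOX1, by 2.20-fold for NQO1, and by 1.13-fold to 1.42-fold for KEAP1, GSR, TXNRD1 and NFE2L2. SRXN1 had a ratio of 3.43 on 6 to 19 counts per library, and 2292 of its 2698 exonic bases are shared with AL121758.1 on the same strand, so its level is uncertain.

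**Figure D1:**
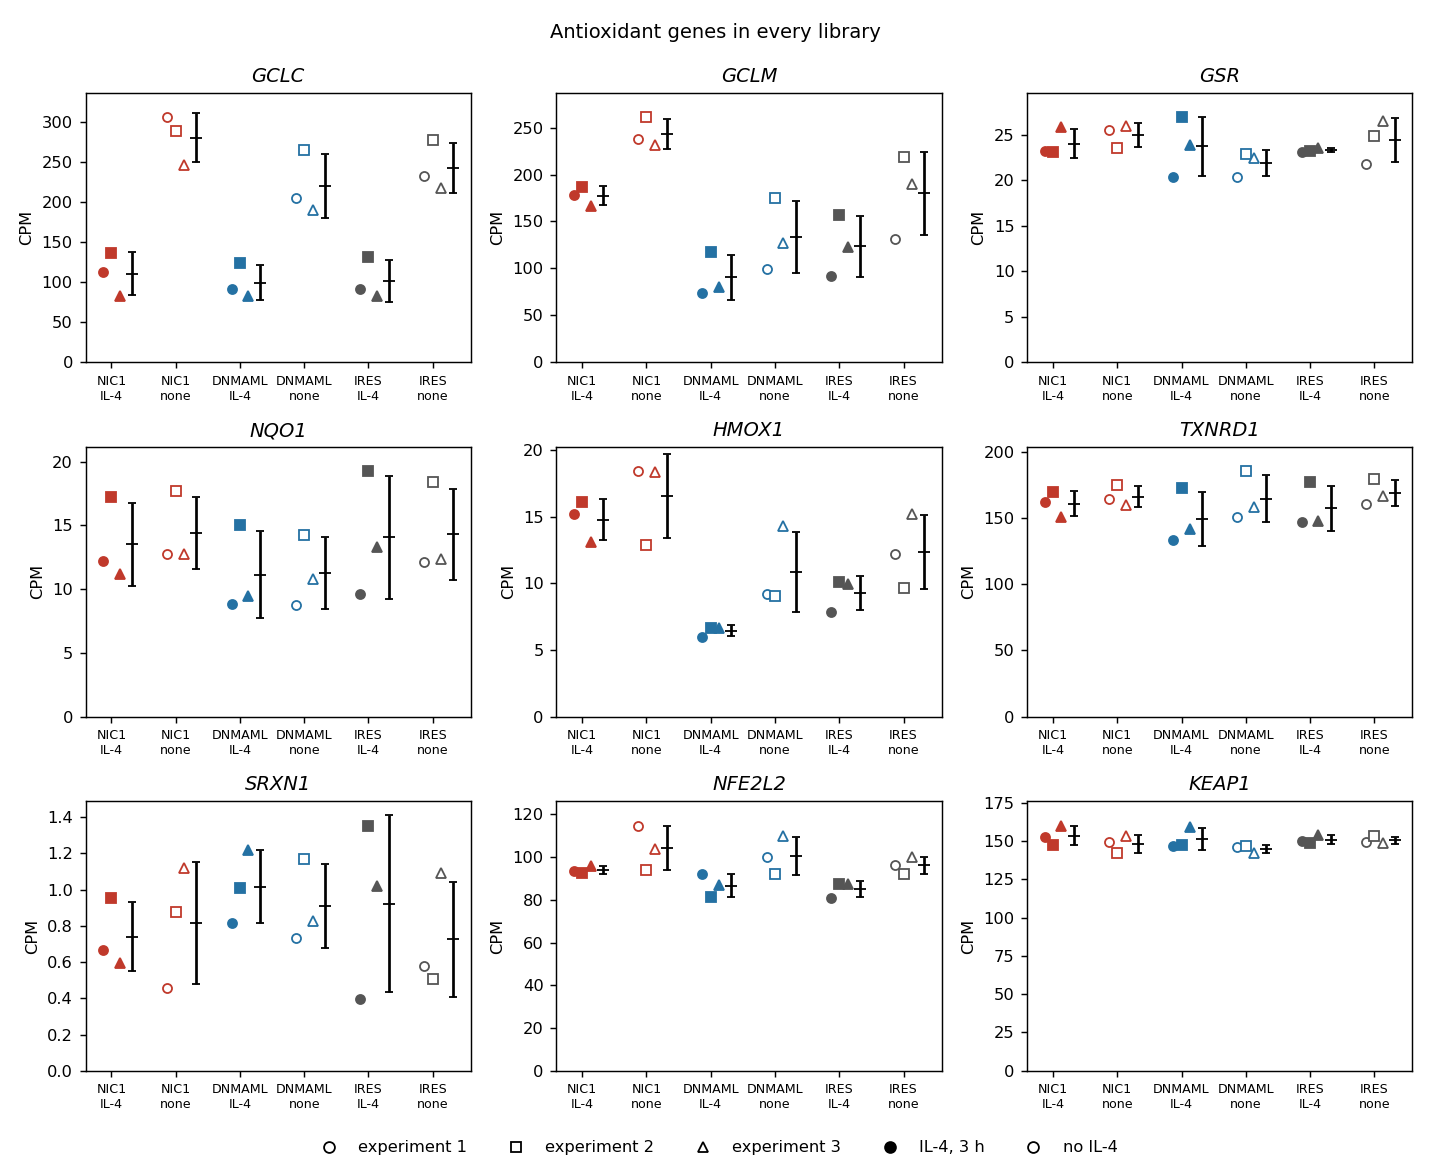
CPM of the 9 genes in each of the 18 libraries. The x axis gives construct and treatment, symbols give the experiment number, filled symbols are IL-4 and open symbols no IL-4, and the bars beside them are the mean and SD of 3 libraries. GCLC lies between 82.5 and 136 CPM in all IL-4 libraries and between 190 and 306 CPM in all unstimulated libraries.

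The first question was how the genes responded to 3 h of IL-4 in each construct. GCLC, the catalytic subunit of the enzyme that starts glutathione synthesis, fell in NIC1, DNMAML and IRES cells alike, and it was the only one of the 9 genes to pass the test in these comparisons without a replicate block. GCLM, its modifier subunit, was also lower on average, by less, and passed in DNMAML and IRES cells only where the experiment number was added to the model as a replicate block. GSR, NQO1, TXNRD1, SRXN1 and KEAP1 did not pass in either model.

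GCLC had 113, 136 and 82.9 CPM in NIC1 cells with IL-4 (experiments 1, 2 and 3), against 306, 289 and 247 CPM in unstimulated NIC1 cells. DNMAML cells had 91.8, 125 and 82.5 CPM with IL-4, against 206, 265 and 190 CPM without. IRES cells had 91.1, 131 and 82.8 CPM with IL-4, against 233, 278 and 218 CPM without. In every construct all IL-4 libraries lay below all unstimulated libraries, and GCLC was lower in 3 of 3 experiments. The log2 change was -1.34 ± 0.213 (SE) in NIC1 cells, 2.53-fold lower with IL-4 (edgeR quasi-likelihood test, Benjamini-Hochberg adjusted p = 0.00149). In DNMAML cells it was -1.15 ± 0.212, 2.21-fold lower (adjusted p = 0.00515), and in IRES cells -1.26 ± 0.213, 2.39-fold lower (adjusted p = 0.00242). These calls held when each library was left out in turn, with adjusted p up to 0.00968 in NIC1, 0.038 in DNMAML and 0.0188 in IRES cells. In DNMAML cells the call was lost when both libraries with the most detected genes, DNMAML with IL-4 replicate 3 and IRES unstimulated replicate 3, were left out together (log2 change -1.03, adjusted p = 0.0514), and it held in the same libraries with the replicate block (-1.16, adjusted p = 4.86e-06). In IRES cells it held without both libraries (-1.33, adjusted p = 0.00767). Lower RNA per cell and fewer cells expressing a gene cannot be told apart in bulk libraries.

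GCLM had 179, 187 and 167 CPM in NIC1 cells with IL-4, against 238, 261 and 231 CPM in unstimulated NIC1 cells. DNMAML cells had 73.8, 118 and 79.7 CPM with IL-4, against 98.9, 175 and 127 CPM without. IRES cells had 91.5, 156 and 123 CPM with IL-4, against 132, 218 and 190 CPM without. The groups were apart in NIC1 cells and overlapped in DNMAML and IRES cells, where experiment 2 was the highest library of each group, and the value was lower with IL-4 in 3 of 3 experiments in every construct. The log2 change was -0.46 ± 0.238 in NIC1 cells (adjusted p = 0.602, and 0.0695 with the replicate block). It was -0.56 ± 0.240 in DNMAML cells (adjusted p = 0.372, and 0.0275 with the block) and -0.54 ± 0.239 in IRES cells (adjusted p = 0.428, and 0.0288 with the block). The blocked calls held in only 2 of 6 leave-outs in each of DNMAML and IRES cells, where the adjusted p reached 0.132 without one of DNMAML unstimulated replicates 2 and 3 or DNMAML with IL-4 replicates 1 and 3, and 0.134 without one of the same replicates of IRES cells. Without both libraries with the most detected genes, they were lost too (adjusted p = 0.121 in DNMAML and 0.148 in IRES cells with the block).

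Of the enzymes outside the ligase, HMOX1, which breaks down haem, was lowest in DNMAML cells with IL-4, at 5.99, 6.67 and 6.67 CPM, against 9.19, 9.08 and 14.3 CPM in unstimulated DNMAML cells. These groups did not overlap. The log2 change was -0.75 ± 0.208 (adjusted p = 0.0683, and 0.0106 with the replicate block), and the blocked call was lost without DNMAML unstimulated replicate 3 or DNMAML with IL-4 replicate 3 (adjusted p up to 0.103), and without both libraries with the most detected genes (0.0796). In NIC1 cells HMOX1 had 15.2, 16.1 and 13.1 CPM with IL-4, against 18.4, 12.9 and 18.4 CPM without. IRES cells had 7.82, 10.1 and 9.99 CPM with IL-4, against 12.2, 9.67 and 15.2 CPM without. The groups overlapped in both, with the experiment 2 library higher with IL-4 in each, and neither passed in either model.

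The regulator gene NFE2L2 averaged 93.8 ± 1.75 CPM with IL-4 and 104 ± 10.3 CPM without in NIC1 cells (SD, n = 3 each). It averaged 86.6 ± 5.54 and 100.5 ± 8.88 CPM with and without IL-4 in DNMAML cells, and 85.1 ± 3.90 and 96.0 ± 3.91 CPM in IRES cells. Its log2 change in DNMAML cells was -0.21 ± 0.0788 (adjusted p = 0.239, and 0.0365 with the replicate block), and that blocked call was lost in 4 of 6 leave-outs (without DNMAML unstimulated replicate 1 or 3, or DNMAML with IL-4 replicate 2 or 3; adjusted p up to 0.233) and without both libraries with the most detected genes (0.2). NFE2L2 shares exonic bases with AC019080.1 (1054 on the same strand) and AGPS (54 on the opposite strand). KEAP1 had the smallest ratio between libraries of the 9 genes, with group means of 153, 151 and 151 CPM with IL-4 and 148, 145 and 150 CPM without in NIC1, DNMAML and IRES cells.

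Within each construct, the group means of GSR, TXNRD1 and NQO1 differed little with and without IL-4. GSR averaged 24, 23.7 and 23.3 CPM with IL-4 in NIC1, DNMAML and IRES cells, against 25.0, 21.9 and 24.4 CPM without. TXNRD1, which reduces thioredoxin, averaged 161, 149 and 157 CPM with IL-4, against 166, 165 and 169 CPM without. NQO1, a quinone reductase, averaged 13.5, 11.1 and 14.1 CPM with IL-4, against 14.4, 11.3 and 14.3 CPM without. SRXN1, which repairs over-oxidised peroxiredoxins, stayed between 0.394 and 1.35 CPM in all libraries. The 95% confidence intervals of the log2 change in IRES cells were -0.281 to 0.150 for GSR, -0.321 to 0.117 for TXNRD1, -0.108 to 0.117 for KEAP1, -0.630 to 0.573 for NQO1 and -0.603 to 1.272 for SRXN1, the widest of these being that of SRXN1, the gene with the fewest counts.

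Against all genes tested, 1 of the 9 genes was called lower with IL-4 in each construct, where 0.798% of all genes were called lower in NIC1, 1.12% in DNMAML and 0.911% in IRES cells. With the replicate block the count was 1 of 9 in NIC1, 4 of 9 in DNMAML and 2 of 9 in IRES cells, beside 3.66%, 4.94% and 4.18% of all genes. The median log2 change of the 9 genes was -0.14 in NIC1, -0.14 in DNMAML and -0.10 in IRES cells, against -0.0106, -0.0092 and -0.0049 over all genes. The groups did not overlap for 2 of the 9 genes in each construct, where 14.9%, 14.1% and 13.3% of all genes had groups that did not overlap.

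**Figure D2:**
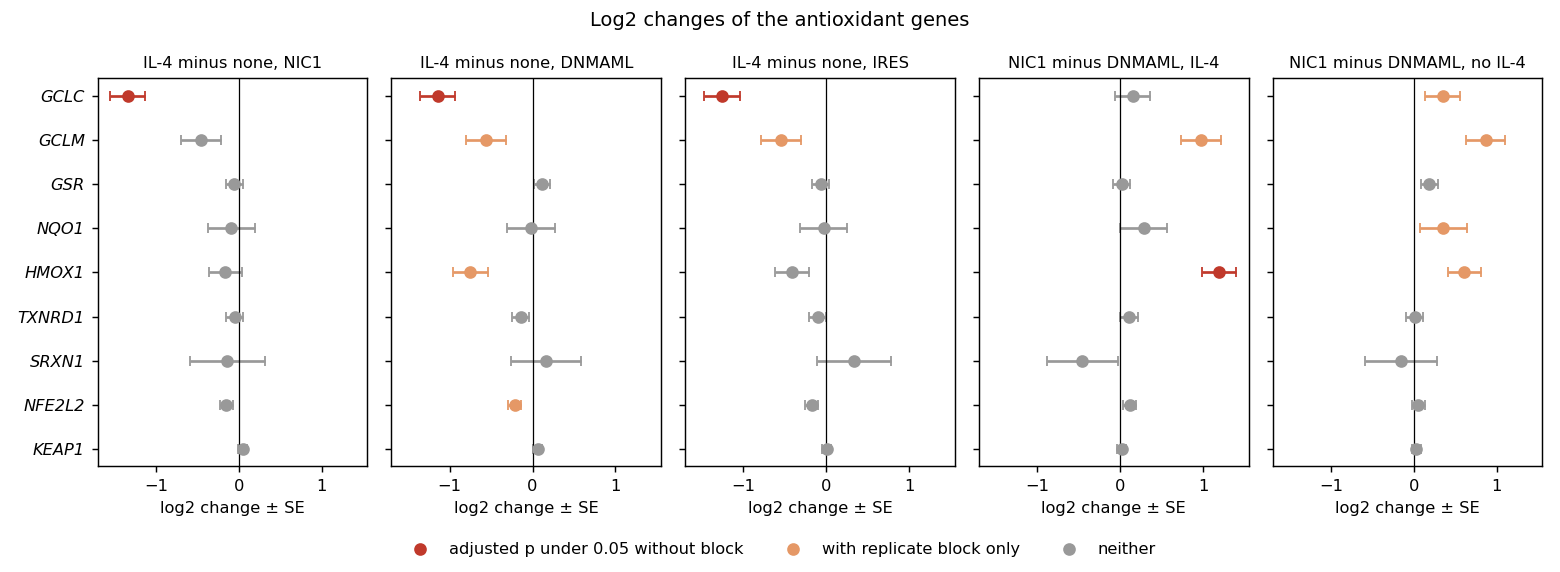
Log2 changes of the 9 genes with their SE in 5 comparisons, IL-4 minus none in each construct and NIC1 minus DNMAML with and without IL-4. Dark red points passed an adjusted p of 0.05 without the replicate block, orange points passed with it only, and grey points in neither. GCLC lies at -1.34, -1.15 and -1.26 in the first 3 panels, and HMOX1 and GCLM lie to the right in the last 2.

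The difference in IL-4 response between constructs was tested directly, and none of the 9 genes passed in NIC1 minus IRES, DNMAML minus IRES or NIC1 minus DNMAML (0% of all genes by edgeR, without or with the replicate block). At an unadjusted p under 0.05 there were 121, 98 and 214 of all genes without the block and 366, 237 and 610 with it. Of the 9 genes, none was among these without the block and 1, HMOX1 in NIC1 minus DNMAML, with it. DESeq2 called 0 genes in each, and limma-voom with a block called 0, 0 and 4 of all genes and none of the 9. For GCLC the difference was -0.09 log2 units in NIC1 minus IRES (95% interval -0.718 to 0.548), 0.11 in DNMAML minus IRES (-0.523 to 0.744) and -0.20 in NIC1 minus DNMAML (-0.829 to 0.438). For HMOX1 the difference in NIC1 minus DNMAML was 0.59 ± 0.287 (-0.023 to 1.194, adjusted p = 1), positive in 3 of 3 experiments.

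Because GCLC and GCLM encode partners of one enzyme, the ratio of their levels (CPM per kilobase) was taken in each library. It was 0.312 to 0.458 in NIC1 cells with IL-4 and 0.671 to 0.807 without. It was 0.649 to 0.780 in DNMAML cells with IL-4 and 0.941 to 1.30 without, and 0.423 to 0.624 in IRES cells with IL-4 and 0.720 to 1.11 without. Within each construct the IL-4 libraries lay below the unstimulated ones with no overlap. The ratio describes RNA and not the make-up of the enzyme. Its absolute value depends on the exon lengths used, 8646 bases for GCLC and 5420 for GCLM.

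**Figure D3:**
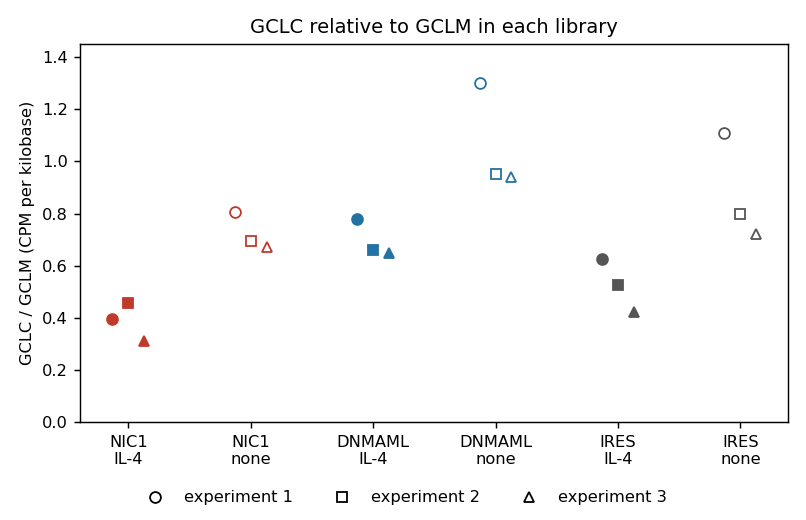
Ratio of GCLC to GCLM (CPM per kilobase of exon) in each library, by construct and treatment. Symbols give the experiment number, filled symbols are IL-4 and open symbols no IL-4, and in every construct the filled symbols lie below the open ones.

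The next question was how far active NOTCH1 and its block set the levels apart. Between NIC1 and DNMAML cells, HMOX1 with IL-4 was higher in NIC1 and passed the test. GCLM was also higher in NIC1 in every experiment, with and without IL-4, and passed with the replicate block. The other genes were closer, and none was called lower in NIC1.

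With IL-4, HMOX1 had 15.2, 16.1 and 13.1 CPM in NIC1 cells, against 5.99, 6.67 and 6.67 CPM in DNMAML cells, on 176 to 227 and 86 to 104 counts per library. The groups were apart in all experiments. The log2 change was 1.20 ± 0.207, 2.29-fold higher in NIC1 (adjusted p = 0.00754, and 9.75e-05 with the replicate block). The call held in 5 of 6 leave-outs and was lost without DNMAML with IL-4 replicate 1 (1.15, adjusted p = 0.0522), and it held in 6 of 6 with the block. Without both libraries with the most detected genes it also held (1.22, adjusted p = 0.0365). Without IL-4, HMOX1 had 18.4, 12.9 and 18.4 CPM in NIC1 cells, against 9.19, 9.08 and 14.3 CPM in DNMAML cells, which overlapped. There the log2 change was 0.61 ± 0.201 (adjusted p = 0.165, and 0.016 with the block), and the blocked call was lost in 4 of 6 leave-outs (without NIC1 unstimulated replicate 1 or 3, or DNMAML unstimulated replicate 1 or 2; adjusted p up to 0.11).

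GCLM with IL-4 had 179, 187 and 167 CPM in NIC1 cells, against 73.8, 118 and 79.7 CPM in DNMAML cells. Without IL-4 it had 238, 261 and 231 CPM in NIC1 cells, against 98.9, 175 and 127 CPM in DNMAML cells. The groups did not overlap in either condition, and the DNMAML libraries spread more widely than the NIC1 libraries. The log2 change was 0.97 ± 0.241 with IL-4 (adjusted p = 0.064, and 0.000457 with the replicate block) and 0.87 ± 0.239 without (adjusted p = 0.0967, and 0.000925 with the block). Both blocked calls held in 6 of 6 leave-outs, with adjusted p up to 0.00469 and 0.00808, and the one with IL-4 held without both libraries with the most detected genes (0.00467).

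Without IL-4, the replicate block also called GCLC and NQO1 higher in NIC1 than in DNMAML cells. GCLC had 306, 289 and 247 CPM in NIC1 cells, against 206, 265 and 190 CPM in DNMAML cells (log2 change 0.35 ± 0.209, adjusted p = 0.516, and 0.0086 with the block). NQO1 had 12.8, 17.7 and 12.8 CPM in NIC1 cells, against 8.73, 14.3 and 10.8 CPM in DNMAML cells (0.36 ± 0.286, adjusted p = 0.655, and 0.0324 with the block). Groups overlapped for both genes, and both were higher in NIC1 in 3 of 3 experiments. The blocked call of GCLC was lost without NIC1 or DNMAML unstimulated replicate 1 (adjusted p up to 0.0633), and that of NQO1 without NIC1 unstimulated replicate 1 or 3 or DNMAML unstimulated replicate 1 or 2 (up to 0.158). With IL-4, GCLC had 113, 136 and 82.9 CPM in NIC1 cells, against 91.8, 125 and 82.5 CPM in DNMAML cells, a log2 difference of 0.15 (95% interval -0.296 to 0.604).

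In NIC1 minus DNMAML, 1 of the 9 genes was called higher with IL-4 and 0 without, where 1.08% and 1.04% of all genes were called higher. At an unadjusted p under 0.05 there were 2 of the 9 genes in each condition, beside 11.8% of all genes with IL-4 and 13.5% without. Without IL-4, DESeq2 called 1 of the 9, GCLM, and 473 of all genes. With the replicate block the counts were 2 of 9 with IL-4 and 4 of 9 without, beside 7.30% and 7.37% of all genes. The median log2 change of the 9 genes was 0.11 with IL-4 and 0.19 without, against -0.0033 and -0.0011 over all genes. Groups did not overlap for 3 of the 9 genes with IL-4 and 2 without, against 15.7% and 16.3% of all genes.

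**Figure D4:**
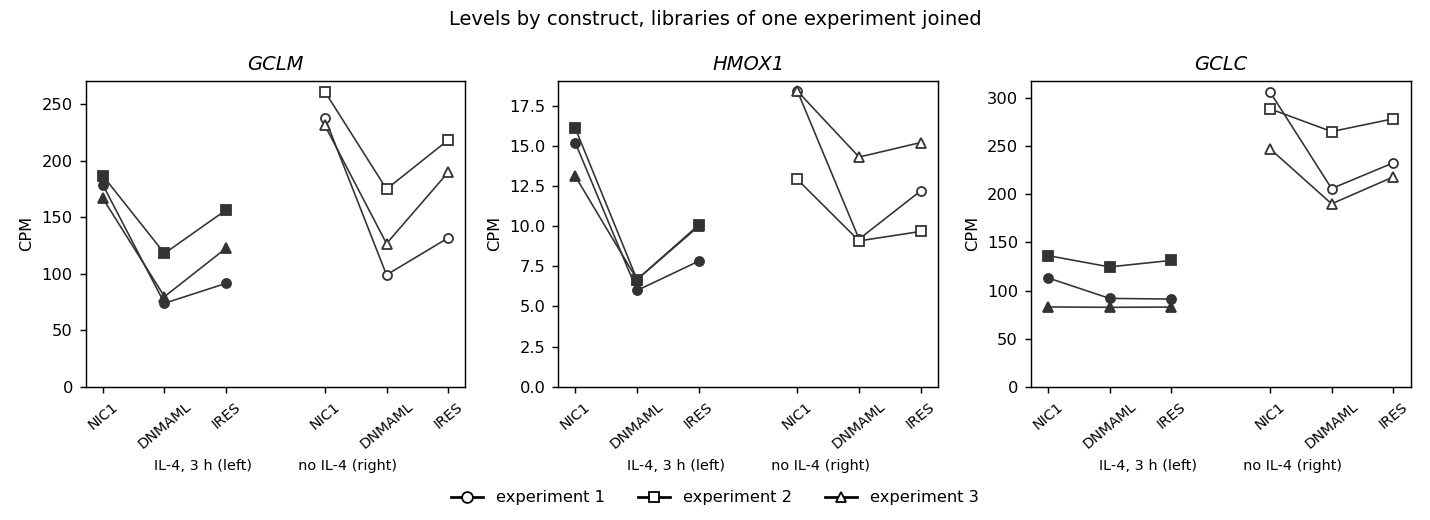
CPM of GCLM, HMOX1 and GCLC by construct, with lines joining the libraries of one experiment, IL-4 on the left of each panel and no IL-4 on the right. In all 6 lines for GCLM and for HMOX1 the NIC1 library is above the DNMAML library, with IRES in between.

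Summed T cell markers were higher in NIC1 than in DNMAML libraries. The summed level of 8 T cell markers, 4 of which reached 1 CPM, was 114 to 138 CPM in NIC1 and 76.6 to 95 CPM in DNMAML cells with IL-4, and 126 to 159 CPM in NIC1 and 87.8 to 97.1 CPM in DNMAML cells without. CD3D, a T cell receptor component, averaged 32.1 ± 8.90 CPM in NIC1 and 2.31 ± 2.06 CPM in DNMAML cells without IL-4. It was thus a small part of the DNMAML sum. Of 4 T cell markers tested, 2 were called higher in NIC1 without the block in each condition, CD3D and CD3G. Over all genes, 1.08% were called higher with IL-4 and 1.04% without. CD3G averaged 3.54 ± 1.09 CPM in NIC1 and 0.0444 ± 0.0769 CPM in DNMAML cells without IL-4. Among 8 B cell markers, 3 reached 1 CPM, VPREB1 was at 0, and the sum was 13.4 to 17.8 CPM in NIC1 and 9.19 to 13.2 CPM in DNMAML cells with IL-4, and 15.2 to 20.9 CPM in NIC1 and 10.2 to 17.3 CPM in DNMAML cells without. CD22 was the 1 of 3 tested B cell markers called higher in NIC1 without the block. Its log2 change was 1.27 ± 0.273 with IL-4 (adjusted p = 0.0288) and 1.14 ± 0.271 without (adjusted p = 0.0469). Each call held in 1 of 6 leave-outs. The sum of the 12 monocyte and macrophage markers was 1660 to 1770 CPM in NIC1 and 1620 to 1900 CPM in DNMAML cells with IL-4, and 1380 to 1460 CPM in NIC1 and 1520 to 1690 CPM in DNMAML cells without, where the groups did not overlap. ITGAM, an integrin of myeloid cells, was lower in NIC1 cells with IL-4 (-0.57 ± 0.119, adjusted p = 0.0244, held in 2 of 6 leave-outs) and without (-0.78 ± 0.12, adjusted p = 0.00309, held in 6 of 6). Of the 10 markers of its list tested, it was the only one called without the block. With the block, 5 were lower and 1 higher with IL-4, and 3 lower and 1 higher without. Over all genes, 5.29% and 6.48% were then lower and 7.30% and 7.37% higher. The list's median log2 change was -0.13 with IL-4 and -0.21 without. The fibroblast and epithelial markers summed to 108 to 177 CPM in NIC1 and 125 to 145 CPM in DNMAML cells with IL-4, and to 122 to 181 CPM in NIC1 and 129 to 193 CPM in DNMAML cells without. Among them the keratin gene KRT18 was lower in NIC1 cells, at 3.26 ± 0.722 CPM in NIC1 and 7.12 ± 1.27 CPM in DNMAML cells with IL-4 (-1.13 ± 0.209, adjusted p = 0.0113, held in 4 of 6 leave-outs) and 3.41 ± 0.456 CPM in NIC1 and 7.39 ± 0.159 CPM in DNMAML cells without (-1.11 ± 0.209, adjusted p = 0.013, held in 3 of 6). Over the 7 tested genes of the fibroblast and epithelial list, the median log2 change was 0.29 with IL-4 and -0.08 without. Without both libraries with the most detected genes, the calls with IL-4 held for ITGAM (adjusted p = 0.0201), KRT18 (0.0235), CD3G (0.00553) and CD22 (0.0345). That of CD3D was lost there (0.0608, and 0.000263 with the block). The part of these markers in the HMOX1 and GCLM values was not tested.

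Against the empty vector the same libraries are used again, so these comparisons are not independent of the ones above. NIC1 minus IRES called 0 of the 9 genes with IL-4 and 0 without, where edgeR called 0.173% and 0.186% of all genes higher. At an unadjusted p under 0.05 there were 2 of the 9 genes with IL-4 and 1 without, beside 5.95% and 7.12% of all genes, and DESeq2 called none of the 9 in either. With the replicate block 2 of 9 were called with IL-4 and 0 of 9 without, beside 3.77% and 3.44% of all genes. GCLM with IL-4 had 179, 187 and 167 CPM in NIC1 cells, against 91.5, 156 and 123 CPM in IRES cells. HMOX1 had 15.2, 16.1 and 13.1 CPM in NIC1 cells, against 7.82, 10.1 and 9.99 CPM in IRES cells. Groups without IL-4 did not overlap for 1 of the 9 genes, beside 10% of all genes. With IL-4 they did not overlap for GCLM, HMOX1 and NFE2L2, 3 of the 9, beside 10.2% of all genes. The log2 change of GCLM was 0.52 ± 0.239 (adjusted p = 0.824, and 0.0394 with the block) and that of HMOX1 was 0.67 ± 0.202 (adjusted p = 0.344, and 0.0197 with the block). The blocked call of GCLM held in 1 of 6 leave-outs, being kept only without NIC1 with IL-4 replicate 2 (adjusted p up to 0.201), and that of HMOX1 in 2 of 6, being lost without NIC1 with IL-4 replicate 1 or 2 or IRES with IL-4 replicate 1 or 3 (up to 0.158).

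DNMAML minus IRES called none of the 9 genes, and edgeR called 0% of all genes in both conditions, with 357 and 371 genes at an unadjusted p under 0.05 with and without IL-4 and 1 and 2 genes by DESeq2. With the replicate block 0.0931% of all genes were called with IL-4 and 0.146% without, and again none of the 9. Of the 9 genes, 1 with IL-4 and 0 without had an unadjusted p under 0.05. The log2 changes lay between -0.53 (HMOX1) and 0.16 (SRXN1) with IL-4 and between -0.43 (GCLM) and 0.33 (SRXN1) without. HMOX1, GCLM and NQO1 were lower in DNMAML than in IRES cells in 3 of 3 experiments in both conditions.

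The experiment number moved several of these genes. The experiment 2 library was the highest of its group in 6 of 6 groups for GCLM, NQO1 and TXNRD1, in 5 of 6 for GCLC, and in 1 to 3 of 6 for GSR, HMOX1, KEAP1, NFE2L2 and SRXN1. This spread enters the error of the test without the block and is removed by the block.

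Other genes of the pathway followed different courses, taken from lists that were chosen with earlier results of these data known. Of 23 genes for glutathione synthesis, recycling and transport, 2 rose with IL-4 in NIC1 cells and 3 in each of DNMAML and IRES cells, and none fell, where 2.25%, 2.15% and 2.02% of all genes were called higher. With the replicate block 4, 3 and 4 were higher in NIC1, DNMAML and IRES cells, beside 5.13%, 5.01% and 4.87% of all genes, and 1 was lower in each construct. SLC7A11, the cystine importer that supplies cysteine for glutathione and is itself a known NRF2 target, rose in all constructs. It averaged 84.0 ± 7.55 CPM with IL-4 and 42.6 ± 4.36 CPM without in NIC1 cells (log2 change 0.98 ± 0.165, adjusted p = 0.00214), 50.8 ± 2.98 and 29.3 ± 5.33 CPM in DNMAML cells (0.80 ± 0.166, adjusted p = 0.0118), and 57.9 ± 7.62 and 32.2 ± 7.91 CPM in IRES cells (0.85 ± 0.166, adjusted p = 0.00733). SLC7A11 with IL-4 was also higher in NIC1 than in DNMAML cells (0.73 ± 0.163, adjusted p = 0.0368, and 0.000288 with the block), a call without the block that was lost in 6 of 6 leave-outs (adjusted p up to 0.172) and without both libraries with the most detected genes (0.0974). The glutaredoxin gene GLRX rose by 0.70 ± 0.129 in NIC1, 0.59 ± 0.128 in DNMAML and 0.60 ± 0.128 log2 units in IRES cells. GGT5, a gamma-glutamyl transferase, rose by 2.38 ± 0.445 in DNMAML and 2.26 ± 0.444 log2 units in IRES cells from a low level, with 4.68 and 4.64 CPM with IL-4 against 0.891 and 0.970 CPM without. Without both libraries with the most detected genes, the IL-4 calls held for SLC7A11 in DNMAML (0.76, adjusted p = 0.0437) and IRES cells (1.00, 0.00907), for GGT5 in DNMAML (2.19, 0.0373) and IRES cells (2.47, 0.0301), and for GLRX in IRES cells (0.69, 0.0248). The GLRX call in DNMAML cells was lost there (0.54, adjusted p = 0.0827, and 0.00458 with the block). Leaving out single libraries ended the SLC7A11 call in DNMAML cells without DNMAML unstimulated replicate 1 or DNMAML with IL-4 replicate 3 (adjusted p up to 0.0677). It ended the GLRX call in IRES cells without IRES unstimulated replicate 2 or IRES with IL-4 replicate 3 (up to 0.083), and in DNMAML cells without one of DNMAML unstimulated replicates 2 and 3 or DNMAML with IL-4 replicates 1 and 3 (up to 0.0913).

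Of 18 glutathione peroxidase and transferase genes that could be tested, out of 25 listed, edgeR called none in any IL-4 response, without or with the block. Among 20 genes of the thioredoxin, peroxiredoxin and methionine sulfoxide reductase system, the sestrin gene SESN1, a known p53 target, was the one that fell with IL-4 in each construct without the block. It averaged 49.1 ± 5.04, 44.3 ± 6.11 and 45 ± 5.23 CPM with IL-4 in NIC1, DNMAML and IRES cells, against 146 ± 16.6, 144 ± 17.6 and 144 ± 27.9 CPM without. Its log2 changes were -1.57 ± 0.147, -1.70 ± 0.147 and -1.68 ± 0.147 (adjusted p = 4.95e-06, 2.36e-06 and 2.87e-06), and -1.69 in DNMAML and -1.75 in IRES cells without both libraries with the most detected genes (adjusted p = 8.19e-05 and 4.19e-05). Of 24 other NRF2 target genes tested, SLC7A11 alone was called in the IL-4 responses without the block. Of 24 NRF2 regulators and partners, the cell cycle inhibitor gene CDKN1A rose in all constructs (1.13 ± 0.106 in NIC1, 1.22 ± 0.107 in DNMAML and 1.21 ± 0.107 in IRES cells), also without both of those libraries (1.23 in DNMAML and 1.17 in IRES cells, adjusted p = 4.5e-05 and 0.000141). BACH2, a repressor related to BACH1, which opposes NRF2 at antioxidant response elements, fell in NIC1 (-1.14 ± 0.288, adjusted p = 0.0414) and IRES cells (-1.18 ± 0.297, adjusted p = 0.0419). The call held in 1 of 6 leave-outs in NIC1 cells, being kept only without NIC1 unstimulated replicate 1 (adjusted p up to 0.168). IRES cells kept the call in 2 of 6, and it was lost without IRES unstimulated replicate 2 or 3 or IRES with IL-4 replicate 1 or 2 (up to 0.239). In IRES cells the value without both libraries was -0.90 (adjusted p = 0.283, and 0.0036 with the block). Of 18 haem and iron genes and 12 genes for superoxide sources and scavengers tested, edgeR called none in the IL-4 responses without the block, and up to 2 in one direction in a construct with it.

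Between NIC1 and DNMAML cells without the block, the lower genes were PRDX2 in both conditions (-0.36 ± 0.0764 with IL-4 and -0.38 ± 0.0765 without), NCF4 in both (-0.46 ± 0.0914 and -0.43 ± 0.0919), and, without IL-4, SESN3 (-0.70 ± 0.135) and the export pump gene ABCC1 (-0.24 ± 0.0502). SOD3, an extracellular superoxide dismutase, was higher without IL-4 (1.81 ± 0.385) at 0.859 CPM in NIC1 and 0.242 CPM in DNMAML cells. Over all genes, 0.359% were called lower with IL-4 and 0.612% without. None of these calls held in more than 2 of 6 leave-outs (adjusted p up to 0.172), and without both libraries with the most detected genes those with IL-4 were lost for PRDX2 (-0.29, adjusted p = 0.192) and NCF4 (-0.36, 0.0974), each of which passed there with the replicate block (0.0103 and 0.0104).

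With the replicate block more genes of these lists differed between NIC1 and DNMAML cells, and over all genes 5.29% were called lower with IL-4 and 6.48% without, beside the shares called higher given above. Of the 18 peroxidase and transferase genes, 5 were lower and 0 higher with IL-4, and 2 were lower and 1 higher without. GPX3, a secreted glutathione peroxidase, averaged 16.0 ± 2.50 CPM in NIC1 and 24.5 ± 6.26 CPM in DNMAML cells with IL-4 (-0.62 ± 0.219, adjusted p = 0.235, and 2.92e-05 with the block). Of the 24 other NRF2 target genes, 5 were lower and 2 higher with IL-4, and 2 were lower and 3 higher without. Of the 18 haem and iron genes, 4 were lower and 0 higher with IL-4, and 3 were lower and 1 higher without. STEAP3, a ferrireductase, averaged 40.4 ± 3.29 CPM in NIC1 and 65 ± 15.9 CPM in DNMAML cells with IL-4 (-0.69 ± 0.186, adjusted p = 0.0951, and 0.000154 with the block). Of the 20 genes of the thioredoxin system, 5 were lower and 2 higher with IL-4, and 4 were lower and 2 higher without. Of the 12 genes for superoxide sources and scavengers, 4 were lower and 2 higher with IL-4, and 5 were lower and 3 higher without. The 23 genes for glutathione synthesis, recycling and transport had 2 lower and 4 higher with IL-4, and 2 lower and 2 higher without. The 24 regulators and partners had 1 lower and 1 higher with IL-4, and 3 lower and 3 higher without. MAFF, a small MAF protein of the family that pairs with NRF2, was the higher one with IL-4, at 14.4 ± 3.09 CPM in NIC1 and 7.68 ± 1.81 CPM in DNMAML cells (0.90 ± 0.321, adjusted p = 0.236, and 0.000113 with the block). GPX3, STEAP3 and MAFF passed only with the block. Whether their calls hold when libraries are left out was not tested. The lists' medians in NIC1 minus DNMAML lay between -0.16 and 0.08 with IL-4 and between -0.12 and 0.08 without.

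**Figure D5:**
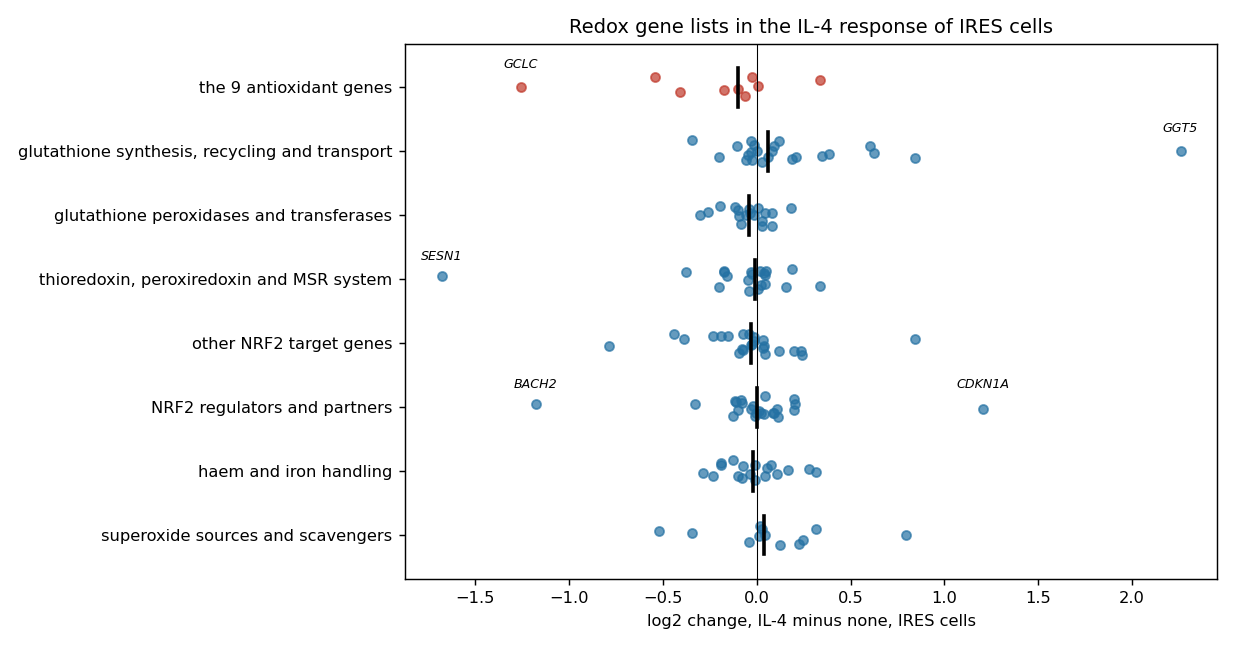
Log2 changes in IRES cells (IL-4 minus none) of the 9 genes and of the members of 7 further redox lists that were tested, each point a gene and each black bar the median of the list. GGT5, SESN1, BACH2, CDKN1A and GCLC lie beyond 1 log2 unit, and all medians lie close to 0.

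To see which genes followed the same course, each member was correlated with 11091 genes of at least 5 CPM over the 18 libraries, after the mean of each experiment number was subtracted from log2 CPM. The libraries share experiments, constructs and IL-4, so r is a description of shared pattern. The genes were picked for that pattern, so the changes given for them are not independent of it. GCLC was most like HAVCR2 (r = 0.984), ARID5B (0.978) and XPO1 (0.977), all of which were lower with IL-4 in IRES cells (log2 changes of -0.72, -1.62 and -0.47). GCLM was most like P2RY14 (0.983), LINC01711 (0.980) and LGI2 (0.973), with NIC1 minus DNMAML log2 changes with IL-4 of 1.75, 0.85 and 1.23. Genes most like HMOX1 included RGS1 (0.946) and PHLDA1 (0.936), with changes of 0.75 and 0.85 in the same comparison. NQO1 was most like ACP5 (0.884), CPE (0.879) and SLTM (0.871), and NFE2L2 like RGCC (0.921), TANK (0.919) and DCTD (0.897). TXNRD1 was most like KANK1 (0.944), ENSG00000280202 (0.910) and IRGQ (0.905), and GSR like MAGOHB (0.876), PIGP (0.848) and ANAPC1 (0.844). KEAP1 was most like MRPS25 (0.869), ZDHHC16 (0.804) and RNASEH2A (0.801), and SRXN1, at its low counts, like ARMCX5 (0.769), PKNOX1 (0.743) and CCDC92 (0.714).

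By GENCODE release 29 (GRCh38), the genes lie at 6:53497341 to 53616970 (GCLC), 1:93885205 to 93909456 (GCLM), 16:69706996 to 69726951 (NQO1), 20:646615 to 653370 (SRXN1), 2:177227595 to 177392697 (NFE2L2), 19:10486120 to 10503741 (KEAP1) and 8:30678061 to 30727999 (GSR) on the minus strand, and at 22:35380361 to 35394214 (HMOX1) and 12:104215779 to 104350305 (TXNRD1) on the plus strand. Counts were taken over the exons of each gene. The strand setting of the counting is not given in the sources used here, and NQO1 shares 575 exonic bases with the antisense gene AC092115.2 and GCLC 529 with AL033397.1, so reads from such partners may be counted together or left out.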

How the data were processed

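RNA from 18 THP-1 libraries was sequenced from TruSeq RNA libraries, per the labels' protocols. Each deposited file gives raw read counts per gene as whole numbers. FastQC, Trimmomatic, HISAT2, HTSeq, DESeq2 and build GRCh38.p12 are named in the submitters' processing notes. No version, annotation release or strand setting is given in the sources used here. Entries that name no gene, 23.8% to 30.9% of reads, were left out.

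Genes were filtered by filterByExpr over 6 groups (15037 kept), scaled by TMM and tested with edgeR 4.0.16 (quasi-likelihood, R 4.3.3) in a model of 6 group means over 18 libraries, in 12 contrasts, with Benjamini-Hochberg adjustment over all genes at a threshold of 0.05. CPM uses TMM-scaled library sizes, and per-kilobase levels use exonic length in GENCODE 29. SEs are derived from the F statistic. DESeq2 1.42.0 and limma 3.58.1 gave alternatives, and Python 3.11.15 with matplotlib 3.10.9 drew the figures. The test was also run on simulated data, with means and spread taken from the fit to these libraries. Those counts were drawn independently, with no effect of experiment number, so the run cannot show how the test behaves with one. No statement here rests on it.

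Experiment numbers paired the libraries: deviations from group means (log2 CPM, prior count 2) correlated at r 0.206 to 0.759 in 45 same-number pairs (median 0.466), and 18 of 18 libraries lay nearest one of their own number. The median was -0.395 in 90 other pairs. Deviations in a group sum to 0, so positive r in same-number pairs forces negative r in the others, and that median is no separate evidence. A fit with the number as a replicate block is therefore given where it changed a call. Changes and SEs beside a blocked p are those of the unblocked fit. Whether libraries of one number are separate cultures is not stated, so p-values measure the spread between libraries, which may be technical in part, and both fits treat libraries of one construct and number as independent. Replicates differed beyond sampling noise (chi-square over degrees of freedom 5.29 to 46.1), so none was treated as a duplicate.

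The 9 genes and all lists were chosen with earlier results of these data known. All 9 are named. Changes are printed for each gene and contrast called in either fit, others as levels, ranges or intervals, with 4 called genes at most per further list and contrast, by lowest p, and the 3 most alike genes per member, of which 1 is not reported here.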

Additional observations from a re-analysis of the deposited data

How the results depend on the processing

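The 12 counts of called genes among the 9 were recomputed under other scalings, no filter on low counts, a fit on only the groups compared, DESeq2, the replicate block and leaving out each library. Added after seeing the data were fits (also given for genes of the further lists called without the block) that omit the 2 libraries richest in detected genes, unblocked and blocked, and limma-voom with a block and an estimated correlation of 0.288 within construct and number. Of these, 170 values kept their count and 22 did not, and none of the recomputed changes of GCLC, GCLM, HMOX1, NFE2L2 and NQO1 (those called with or without the block) turned its sign. GSR, TXNRD1, SRXN1 and KEAP1 entered only the counts. For IL-4 in IRES cells the count of 1 became 2 with the replicate block and 3 with limma-voom. In NIC1 cells the count of 1 became 2 with only the groups compared and 2 with limma-voom, GCLM being added. In DNMAML cells the count of 1 became 2 without the filter and 2 with DESeq2 (HMOX1 added), 4 with the replicate block, 5 with limma-voom and 0 without the 2 libraries. NIC1 minus IRES with IL-4 had 2 in the block and limma-voom fits, and without IL-4 1 (GCLM) in limma-voom, each against 0 in the unblocked edgeR fit. NIC1 minus DNMAML with IL-4 had 2 with the replicate block, 2 with DESeq2, 2 with the block and without the 2 libraries, 2 with limma-voom and 0 to 2 in leave-outs, against 1. Without IL-4 it had 4 with the block, 1 with DESeq2, 4 with limma-voom and 0 to 1 in leave-outs, against 0. The cause of these shifts was not tested.

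Counts over all genes in the IL-4 responses were 458 in NIC1, 493 in DNMAML and 441 in IRES cells, 1323, 1496 and 1360 with the replicate block, and 1908, 2225 and 1961 with limma-voom. They were 216 and 248 in NIC1 minus DNMAML with and without IL-4 (1893 and 2082 with the block, 1902 and 2007 with limma-voom), 30 and 35 in NIC1 minus IRES (818 and 808, and 855 and 853) and 0 and 0 in DNMAML minus IRES (14 and 22). DESeq2 called 606 genes for IL-4 in DNMAML cells, 402 and 473 in NIC1 minus DNMAML and 106 and 88 in NIC1 minus IRES. Leaving out libraries gave 70 to 209 and 77 to 215 genes in NIC1 minus DNMAML, and 0 to 18 and 0 to 26 in NIC1 minus IRES. Depth limits SRXN1, with 6 to 19 counts per library.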
